A study of Homo sapiens with 6 samples.

Results

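The p53 target genes described here are 33 human genes that the transcription factor p53 is known to switch on, chosen by symbol and matched by Ensembl identifier in the deposited count files, out of 57659 genes listed there. All 33 were found, and all 33 had enough counts to be tested. RNA came from IMR90 cells, primary human fetal lung fibroblasts, in 2 groups of 3 libraries: cells with a short hairpin RNA against luciferase (control) and cells with a short hairpin RNA against macroH2A1 (knockdown), a histone H2A variant with a large extra domain. The series calls the libraries biological replicates; no source used here says how many hairpins were used or how the cultures were kept apart, and p-values measure the spread between these libraries. The comparison answers which of these genes differ in RNA level when macroH2A1 is depleted.

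p53 is held at low levels in unstressed cells by MDM2, a ubiquitin ligase that is itself a p53 target. DNA damage, oncogene activity or ribosomal stress releases p53 from MDM2, and p53 then binds paired decamers of DNA near its targets. The products of these targets stop the cell cycle, repair DNA, start apoptosis, adjust metabolism or feed back on p53. Fibroblasts such as IMR90 keep this response and are widely used to study arrest and senescence, which depend on p53 and on CDKN1A (p21).

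The targeted gene was low in every knockdown library. MACROH2A1 (ENSG00000113648) stood at 92.1, 88.0 and 84.8 CPM (read count relative to the library size, scaled for composition) in the control libraries and at 39.0, 43.7 and 39.9 CPM in the knockdown libraries, which leaves 46.3% of the control level. The libraries held 3741087 to 6421605 gene counts, so that 3 counts correspond to 0.467 to 0.802 CPM, and the members had 14 to 1717 counts per library. Markers of fibroblasts were abundant in both groups: 11 of 12 were tested, with summed levels of 7557 to 8613 CPM in control and 12081 to 12833 CPM in knockdown libraries. Means rose for COL1A2 (2579 against 3904 CPM) and COL3A1 (1015 against 2221 CPM), among others, while VIM stayed at 1715 CPM. THY1 changed little (133.7 against 141.3 CPM), and FAP was lower (66.7 against 60.7 CPM). Summed levels were 27.4 to 29.7 against 7.52 to 11.8 CPM for 10 epithelial markers, mostly KRT18 (mean 24.5 against 8.19 CPM). Of these 10 markers, 8 had at most 10 counts over all 6 libraries together. For 8 endothelial markers they were 67.1 to 72.5 against 143 to 149 CPM, mostly TEK (mean 62.3 against 132 CPM). KDR also rose (0.346 against 8.17 CPM), FLT1 went the other way (6.40 against 4.83 CPM), and PECAM1, CDH5, CLDN5 and ERG were nearly absent. For 8 blood cell markers the sums were 5.72 to 7.91 against 4.75 to 5.44 CPM. SFTPB, SCGB1A1, PECAM1 and CD3E were at 0 in every library. The makeup of the libraries also moved with the groups: reads without a unique alignment were 67.6% to 68.8% of all reads listed in control and 64.4% to 66.6% in knockdown libraries, and reads outside annotated features 8.34% to 9.43% and 10.6% to 11.3%, with no overlap for either. The part that these shifts in markers and in library makeup have in the results below was not tested.

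Of the 33 p53 target genes, 5 fell and 1 rose by edgeR's quasi-likelihood test, at a threshold of 0.05 on p-values adjusted by Benjamini-Hochberg over all genes tested. The genes that fell were RRM2B, POLH, MDM2, CDKN1A and EDA2R, to between 62.8% and 73.4% of the control level, and the gene that rose was PLK2, at 1.35-fold. Over all 13445 genes tested, 8.21% were called, 4.31% lower and 3.9% higher. The median log2 fold change of the 33 genes was -0.26, against 0.01 over all genes tested, and 22 of the 33 had a negative fold change, against 49.2% of all genes. Over the 10437 protein-coding genes tested, 9.64% were called, 51.9% had a negative fold change and the median was -0.015. The 33 genes were chosen with earlier results of these data known, so these shares are descriptions. In 14 members every knockdown library lay below every control library, and in 3 members above; such groups made up 15.9% and 14.5% of all genes tested. In bulk RNA, fewer cells that express a gene and less RNA per cell cannot be told apart.

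The calls rest on modest differences, and each of the 6 was lost when at least 1 of the libraries was left out. With 1 library left out, 0 to 4 of the 33 genes were called: 1 without control replicate 1, 0 without control replicate 2, 1 without control replicate 3, 2 without knockdown replicate 1, 1 without knockdown replicate 2 and 4 without knockdown replicate 3. At the same time the calls over all genes fell from 1104 to between 427 and 564. For the 6 called members the direction was the same in each of 14 alternative settings. Their groups did not overlap, so leaving out 1 library could hardly have reversed it, and this adds no support.

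**Figure D1:**
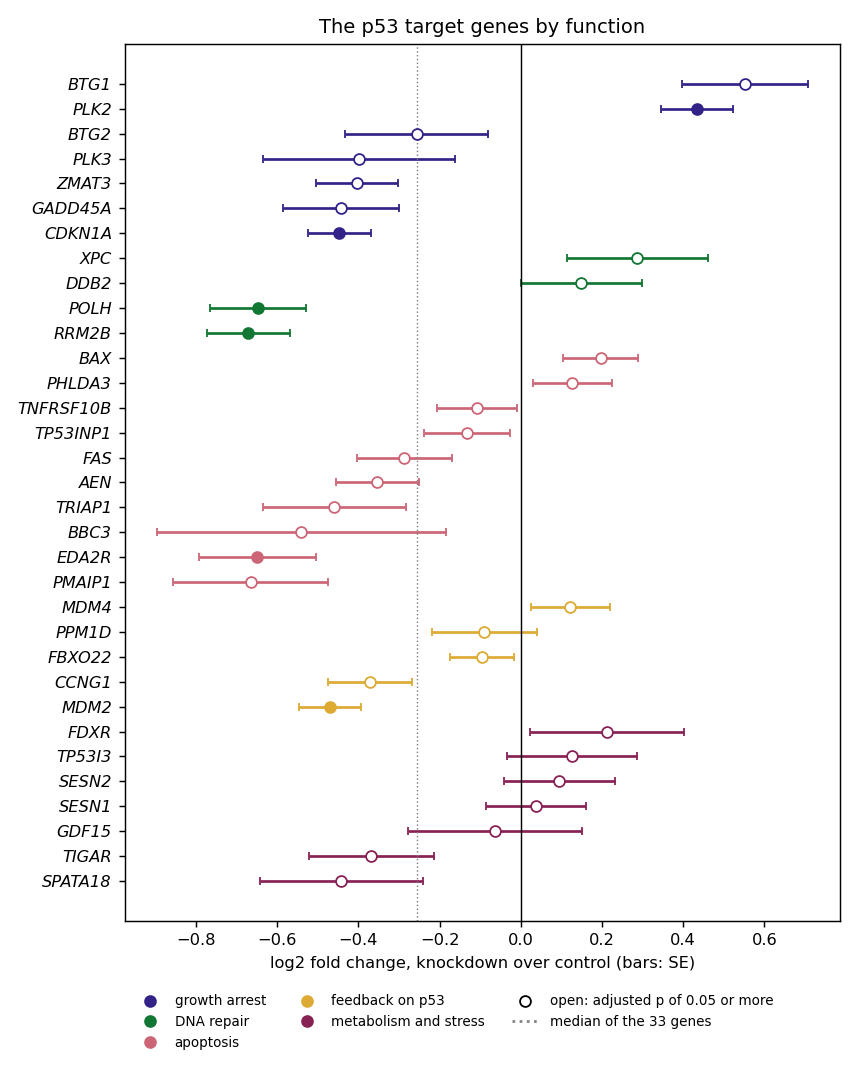
Log2 fold change of each of the 33 genes, knockdown over control, with its standard error as a bar, grouped by function; filled points passed the test and open points did not. The 5 filled points on the left are RRM2B, POLH, EDA2R, MDM2 and CDKN1A, the filled point on the right is PLK2, and the dotted line marks the median of -0.26. For some genes the bar is shorter than counting error alone would make it.

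The sequence near the starts of these genes was searched for the pattern that p53 recognises. Of the 33 genes, 27 matched a RefSeq promoter window (GRCh38.p14, 250 bases before to 50 after a start), with 39 windows in all. The search was for the p53 consensus decamer, which reads the same on both strands, and for a pair of adjacent decamers that keeps the central C and G of each. A pair with at most 2 mismatches lay in windows of 4 members (14.8% of the 27), MDM2, AEN, FAS and DDB2, and in 0.359% of all 27305 genes with a window. With at most 3 mismatches the count was 8 members (29.6%) and 1.37% of all genes. At least 1 decamer without mismatch, alone or within a pair, lay in 6 members (22.2%) and 8.06% of all genes. A match is a description and says nothing about binding in these cells.

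The 6 stretches below belong to MDM2, which fell, PLK2, which rose, and 4 genes that did not pass. Capitals mark the decamers, and each is written 5′ to 3′ on the strand of the gene.
MDM2: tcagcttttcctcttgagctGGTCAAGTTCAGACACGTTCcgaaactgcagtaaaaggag
AEN: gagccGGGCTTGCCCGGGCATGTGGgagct
FAS: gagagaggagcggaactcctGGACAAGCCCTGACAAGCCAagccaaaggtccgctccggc
DDB2: gctccAAGCTGGTTTGAACAAGCCC
SESN1: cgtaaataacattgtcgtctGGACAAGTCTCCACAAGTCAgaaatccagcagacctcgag
PLK2: ggacaAGACTTGCTTcccgg
The MDM2 stretch is chr12:68808903-68808962 on the plus strand. Its pair has 1 mismatch in each decamer, begins 94 bases before 1 of the gene's listed starts, and is intronic in the GENCODE 29 annotation. AEN is shown at chr15:88621301-88621330 (plus strand), 34 bases before its start. FAS is shown at chr10:88991289-88991348 (plus strand), 122 bases before 1 of its starts, and DDB2 at chr11:47214964-47214988 (plus strand), where the pair spans the start. AEN, FAS and DDB2 each have a decamer without mismatch, and their pairs overlap an annotated exon. The SESN1 pair, at chr6:109008998-109009057 on the minus strand, has 3 mismatches, all in its second decamer, and is intronic. PLK2, at chr5:58460204-58460223 on the minus strand, has 1 decamer without mismatch, 132 bases before its start. The windows of CDKN1A, POLH, EDA2R and PLK2 held no pair with at most 3 mismatches, which says only that these letters are not in those windows. RRM2B, which fell, had no window and was not searched. The same holds for GADD45A, TP53INP1, TNFRSF10B, PHLDA3 and FBXO22.

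Among 7 genes of growth arrest, CDKN1A fell and PLK2 rose, and the other 5 did not pass. CDKN1A encodes p21, the inhibitor of cyclin-dependent kinases through which p53 stops the cell cycle. It had 160.3, 172.2 and 185.3 CPM in the control libraries and 130.1, 125.5 and 124.0 CPM in the knockdown libraries. The groups did not overlap, and the lowest control library stood above the highest knockdown library. The mean went from 172.6 ± 12.5 to 126.5 ± 3.20 CPM (SD, n = 3 per group), or -0.45 on the log2 scale (SE 0.08), with an adjusted p of 0.0178 in edgeR. CDKN1A lost its call with each library left out in turn except control replicate 1, with adjusted p values over all settings of at most 0.0730.

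PLK2, a kinase of the polo family that acts at the centrosome and is induced by p53 and by growth signals, went the other way. Its level was 239.5, 225.9 and 220.2 CPM in control and 339.6, 288.1 and 298.1 CPM in knockdown libraries. Every knockdown library was above every control library, and knockdown replicate 1 was the highest of all. The mean rose from 228.5 ± 9.94 to 308.6 ± 27.3 CPM (SD, n = 3 per group; log2 fold change 0.43, SE 0.09, edgeR adjusted p = 0.0318), and the call was lost with any 1 library left out (adjusted p over all settings at most 0.112).

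ZMAT3, an RNA-binding zinc finger protein, was the gene of this class nearest to the threshold. It stood at 95.1, 95.1 and 109.2 CPM in control and 67.0, 79.6 and 79.6 CPM in knockdown libraries (log2 fold change -0.40, SE 0.10, edgeR adjusted p = 0.0569). The groups did not overlap, and the gene passed with DESeq2, with limma-voom and when only genes of the authors' table were tested. GADD45A, a stress protein that restrains the cell cycle, had no overlap either, at 12.5 ± 0.177 and 9.18 ± 1.02 CPM (n = 3 per group). BTG1, an antiproliferative cofactor of RNA decay, had the highest fold change of the 33 genes, 1.47-fold, with control libraries from 11.9 to 15.2 CPM and knockdown libraries from 17.4 to 23.3 CPM, and did not pass (edgeR adjusted p = 0.0795). Its relative BTG2 had 13.4 ± 1.51 and 11.3 ± 2.09 CPM, and PLK3, a relative of PLK2, 7.27 ± 1.28 and 5.59 ± 1.12 CPM (n = 3 per group), with groups that overlapped for both.

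The 4 genes of DNA repair split into a pair that fell and a pair that did not pass. RRM2B is the p53-induced small subunit of ribonucleotide reductase, which supplies nucleotides for repair outside S phase. It was at 81.0, 80.9 and 77.4 CPM in control libraries and at 57.6, 46.5 and 46.1 CPM in knockdown libraries. The control libraries lay within a narrow range, all above the knockdown libraries, of which replicate 1 was the highest. Its log2 fold change of -0.67 (SE 0.10, adjusted p = 0.0125 with edgeR) was the lowest of the 33 genes, and it kept its call in 12 of 14 alternative settings, the exceptions being the fits without control replicate 1 and without control replicate 2 (adjusted p at most 0.0528).

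POLH encodes DNA polymerase eta, which copies past ultraviolet damage. Its control libraries had 21.04, 22.2 and 21.9 CPM and its knockdown libraries 13.3, 12.6 and 15.8 CPM, with no overlap. The level was 63.8% of control (log2 fold change -0.65, SE 0.12, edgeR adjusted p = 0.0218), and the call was lost without any single control library, without knockdown replicate 1 and without knockdown replicate 2. XPC and DDB2, which recognise damage in nucleotide excision repair, had positive fold changes that did not pass. XPC had 27.1, 32.0 and 41.0 CPM in control and 36.8, 47.2 and 37.5 CPM in knockdown libraries (edgeR adjusted p = 0.363), so that the groups overlapped and the control libraries alone differed widely. DDB2 had 8.25 ± 0.274 and 9.18 ± 0.705 CPM (n = 3 per group).

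**Figure D2:**
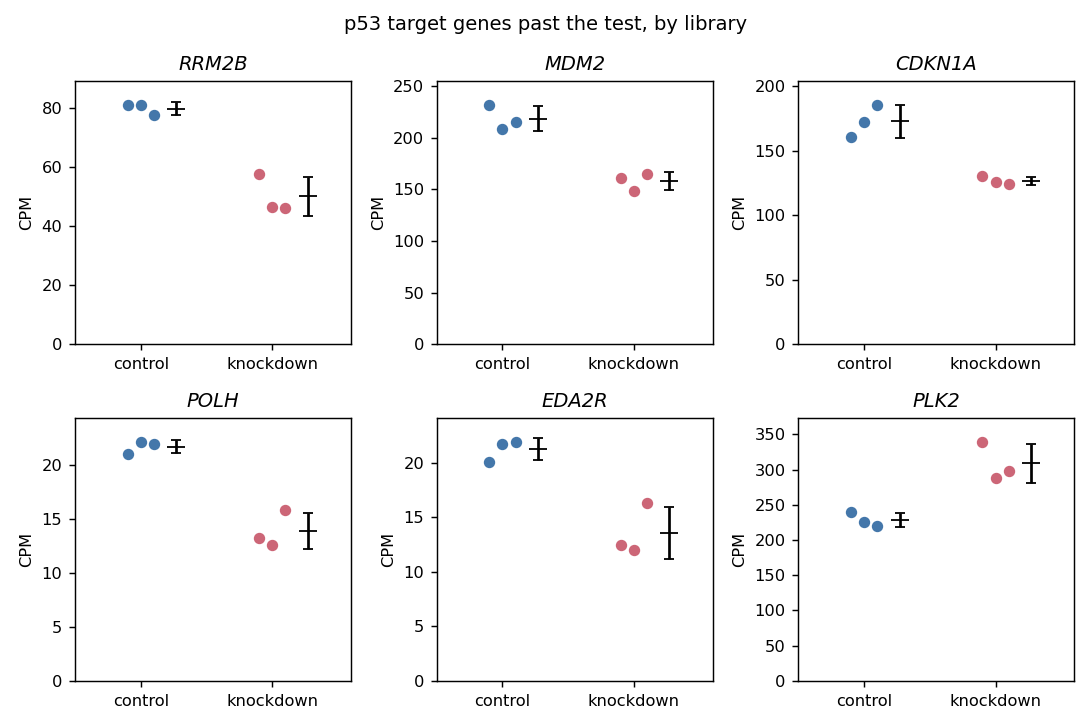
Level in CPM of the 6 p53 target genes that passed the test, with 1 point per library and the mean and SD of each group of 3 as a bar. In RRM2B, MDM2, CDKN1A, POLH and EDA2R the 3 knockdown points lie below the 3 control points, and in PLK2 above them.

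Of 10 genes of apoptosis, EDA2R fell and 9 did not pass. The share called, 10.0%, was close to the 8.21% over all genes tested. Fold changes were negative in 8 (80.0%, against 49.2% of all genes tested), with a class median log2 of -0.32. EDA2R, a receptor of the tumour necrosis factor family for ectodysplasin A2, had 20.1, 21.7 and 21.9 CPM in control and 12.5, 11.96 and 16.3 CPM in knockdown libraries. Knockdown replicate 3 was the highest of its group and still below all controls (log2 fold change -0.65, SE 0.14, edgeR adjusted p = 0.0410). EDA2R lost its call without any single control library, without knockdown replicate 1 and without knockdown replicate 2 (adjusted p over all settings at most 0.1197).

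PMAIP1, which encodes the BH3-only protein NOXA, had a fold change as low as those of the called repair genes with more spread. Its libraries stood at 31.6, 28.8 and 25.6 CPM in control and 23.5, 14.6 and 16.1 CPM in knockdown, again without overlap. The log2 fold change of -0.67 (SE 0.19) did not pass (edgeR adjusted p = 0.0834), while without knockdown replicate 1, the highest of its group, it did; it also passed with DESeq2, with no filter on low counts and over the genes of the authors' table. AEN, a nuclease that degrades DNA in dying cells, had 69.3, 77.1 and 67.9 CPM in control and 58.3, 60.2 and 49.0 CPM in knockdown libraries, with an adjusted p of 0.0852 (edgeR). TRIAP1, an inhibitor of apoptosis in the mitochondrial intermembrane space, and the death receptor FAS also had groups that did not overlap, at 72.7% and 82.0% of control, and neither passed. About 8.93% of the exonic length of FAS is shared with ACTA2 on the opposite strand, so its value is uncertain as long as the strand setting of the counting is not known.

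The remaining 5 genes of apoptosis were less clear. TNFRSF10B, a receptor for the ligand TRAIL, had 92.8 ± 9.29 and 86.1 ± 5.89 CPM, and TP53INP1, which promotes p53-dependent death and autophagy, 36.7 ± 2.75 and 33.4 ± 3.60 CPM (n = 3 per group). BAX, a pore-forming protein of mitochondria, was the member of this class with knockdown libraries all above the controls, from 19.6 to 20.1 against 16.5 to 17.9 CPM, and it did not pass (log2 fold change 0.20, SE 0.09, edgeR adjusted p = 0.351). PHLDA3, an inhibitor of AKT, had a log2 fold change of 0.13 (SE 0.10). BBC3, which encodes PUMA, was the least precise, with 15 to 34 counts per library and a log2 fold change of -0.54 with an SE of 0.36.

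Among 5 genes that act back on p53, MDM2 fell and the other 4 did not pass. MDM2 was at 231.8, 208.7 and 215.4 CPM in control and at 160.8, 148.3 and 164.5 CPM in knockdown libraries. These groups were separated by a gap wider than the range within either group. The mean fell from 218.6 ± 11.8 to 157.9 ± 8.47 CPM (SD, n = 3 per group; log2 fold change -0.47, SE 0.08, edgeR adjusted p = 0.0154), and the call was lost without any single control library, without knockdown replicate 1 and without knockdown replicate 2 (adjusted p over all settings at most 0.0642). CCNG1, cyclin G1, which brings a phosphatase to MDM2, had 248.0, 231.6 and 219.4 CPM in control and 204.9, 166.6 and 168.5 CPM in knockdown libraries. Its groups did not overlap, and it did not pass (log2 fold change -0.37, SE 0.10, edgeR adjusted p = 0.0770), though it passed with DESeq2, with library totals as the only scaling and over the genes of the authors' table.

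The groups of the other 3 genes of this class overlapped. MDM4, the relative of MDM2 that blocks p53 without degrading it, had 41.7 ± 4.18 and 45.3 ± 2.78 CPM, PPM1D, the phosphatase WIP1, 20.4 ± 2.87 and 19.1 ± 0.923 CPM, and FBXO22, a ubiquitin ligase subunit, 34.9 ± 1.59 and 32.6 ± 1.76 CPM (n = 3 per group).

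In the class of metabolism and stress, none of 7 genes passed with edgeR, and DESeq2 and limma-voom called 0. Only 1, TIGAR, had an unadjusted p under 0.05 with edgeR, as had 3301 of all 13445 genes tested. TIGAR, which lowers glycolytic flux, had 13.6, 13.9 and 16.4 CPM in control and 10.7, 10.2 and 13.1 CPM in knockdown libraries (log2 fold change -0.37, SE 0.15, edgeR adjusted p = 0.202). Its groups came close without overlapping. SPATA18, which takes part in the quality control of mitochondria, also had groups that did not overlap, at 73.6% of control with an SE of 0.20 on the log2 scale. SESN1 and SESN2, the sestrins that restrain mTORC1, had log2 fold changes of 0.04 (SE 0.12) and 0.09 (SE 0.14). FDXR, ferredoxin reductase, the oxidoreductase gene TP53I3 and GDF15, a secreted stress hormone, had log2 fold changes from -0.06 to 0.21, and their groups overlapped.

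Levels per length differed more between genes than between groups. Per kilobase of exonic length (mean of the 6 libraries), CCNG1 stood at 66.7 CPM, PLK2 at 56.3, CDKN1A at 49.0, TNFRSF10B at 17.3 and MDM2 at 14.2 CPM. RRM2B followed at 11.7 CPM per kilobase, while POLH and EDA2R were at 5.03 and 4.87 and the other genes from 1.63 to 10.6. The called genes were thus found from the upper to the middle part of this order. Summed over the 33 genes, the level was 1657, 1663 and 1668 CPM in control and 1539, 1426 and 1460 CPM in knockdown libraries. CCNG1, MDM2, PLK2 and CDKN1A made up 50.4% to 54.3% of that sum, which is a description and was not tested. By class, the summed level of feedback genes was 536 to 570 CPM in control and 411 to 464 CPM in knockdown libraries, that of repair genes 138 to 149 and 109 to 116 CPM, and that of apoptosis genes 330 to 358 and 284 to 302 CPM. For the arrest genes the sums overlapped, at 540 to 560 and 537 to 580 CPM, with PLK2 and CDKN1A moving in opposite directions, and so did those of the metabolic genes, at 76.6 to 86.4 and 76.5 to 77.7 CPM.

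Some members are close relatives of each other and can be compared within a library. The ratio of counts of 2 genes within 1 library does not depend on how libraries are scaled, so it was computed for 4 pairs. MDM2 had 5.91, 5.31 and 4.63 counts per count of MDM4 in control and 3.52, 3.10 and 3.89 in knockdown libraries. The groups did not overlap, and the log2 ratio was lower by 0.59 in the knockdown, from 2.39 ± 0.176 to 1.80 ± 0.163 (SD, n = 3 per group; two-sided exact permutation p = 0.1, 0.133 adjusted over the 4 pairs). PLK2 had 29.1, 29.1 and 37.9 counts per count of PLK3 in control and 78.0, 44.2 and 50.6 in knockdown libraries. That is a difference of 0.81 on the log2 scale (exact permutation p = 0.1, 0.133 adjusted), with PLK3 at 22 to 52 counts per library. BTG1 had 1.25, 0.788 and 1.04 counts per count of BTG2 in control and 1.94, 1.702 and 1.71 in knockdown libraries, a difference of 0.82 on the log2 scale (exact permutation p = 0.1, 0.133 adjusted). The ratio of SESN1 to SESN2 overlapped between the groups, with a difference of -0.06 (exact permutation p = 0.8). With 3 libraries against 3 the smallest p is 0.1, so none of these could pass.

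**Figure D3:**
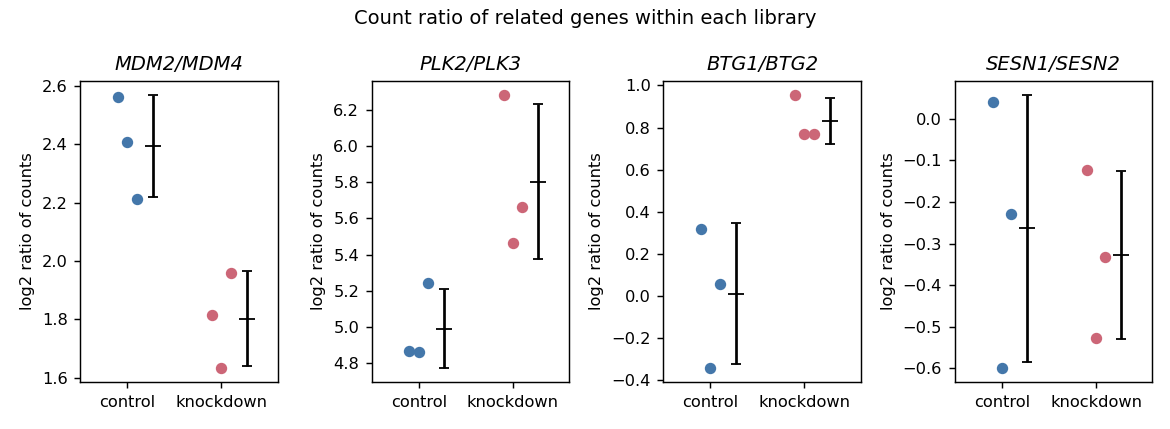
Log2 ratio of the counts of 2 related genes within each library, for 4 pairs, with 1 point per library and the mean and SD of each group of 3. The knockdown points lie below the control points for MDM2/MDM4 and above them for PLK2/PLK3 and BTG1/BTG2, and they overlap for SESN1/SESN2.

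The authors' deposited table lists all 33 genes, computed with DESeq from these libraries, so its calls repeat the same comparison with another test. By its name it holds protein-coding genes only. In the authors' deposited table, 9 of the 33 genes are lower and 1 is higher at an adjusted p under 0.05, where 12.0% of its 11638 genes pass, 6.57% lower and 5.46% higher. All 6 genes called with edgeR are among these 10 in the authors' deposited table, in the same direction. The further 4 are ZMAT3, PMAIP1, AEN and CCNG1, with log2 ratios of -0.39, -0.66, -0.34 and -0.36 in the authors' deposited table.

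Among 37 tested regulators of p53, SETD7, a lysine methyltransferase that acts on p53, was lower at 116.1 ± 5.14 CPM against 155.0 ± 5.83 CPM (n = 3 per group) with an adjusted p of 0.0164 in edgeR, and 36 did not pass. The median log2 fold change over these regulators was -0.10, and the share called was 2.7%, below the 8.21% over all genes. SETD7 lost its call without any single control library, without knockdown replicate 1 and without knockdown replicate 2. RNA levels do not report the amount or activity of the p53 protein.

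Further p53 targets outside the 33 genes went in both directions. Of 47 tested, 6 fell and 1 rose, a called share of 14.9% against 8.21% over all genes, with a median log2 fold change of -0.13. This list was chosen with earlier results of these data known, so its share is a description and no independent support. DRAM1, a lysosomal protein of autophagy, was at 68.5% of control, ASCC3, a helicase of alkylation repair, at 73.4%, and EPHA2, an ephrin receptor, at 66.6%. TNFRSF10D, a decoy receptor for TRAIL, and LIF, a cytokine, fell to 70.9% and 75.1%. TP53I11 had 9.16 ± 0.728 CPM in control and rose to 21.6 ± 2.19 CPM (n = 3 per group; adjusted p = 0.00354 with edgeR). TP53I11 was called in all 14 alternative settings and DRAM1 in 13, while ASCC3, EPHA2, TNFRSF10D and LIF lost their calls in 6, 8, 8 and 10.

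Genes that p21 holds down through the DREAM repressor complex were read beside CDKN1A. Of 34 tested, KIF20A, a mitotic kinesin, and BIRC5, which encodes survivin, rose 1.49-fold and 1.36-fold, and 32 did not pass. The share called, 5.88%, was below the 8.21% called over all genes tested. Over the 34 genes the median log2 fold change was 0.15, against 0.01 over all genes, and 23.5% had a negative one, against 49.2% of all genes. KIF20A had 25.3, 24.0 and 23.3 CPM in control and 32.0, 42.2 and 34.3 CPM in knockdown libraries, and BIRC5 19.3, 23.3 and 19.6 against 28.5, 29.4 and 26.8 CPM (edgeR adjusted p = 0.0330 and 0.0473). Neither gene's groups overlapped. The call of KIF20A was lost in 7 alternative settings and that of BIRC5 in 10, both with library totals as the only scaling.

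**Figure D4:**
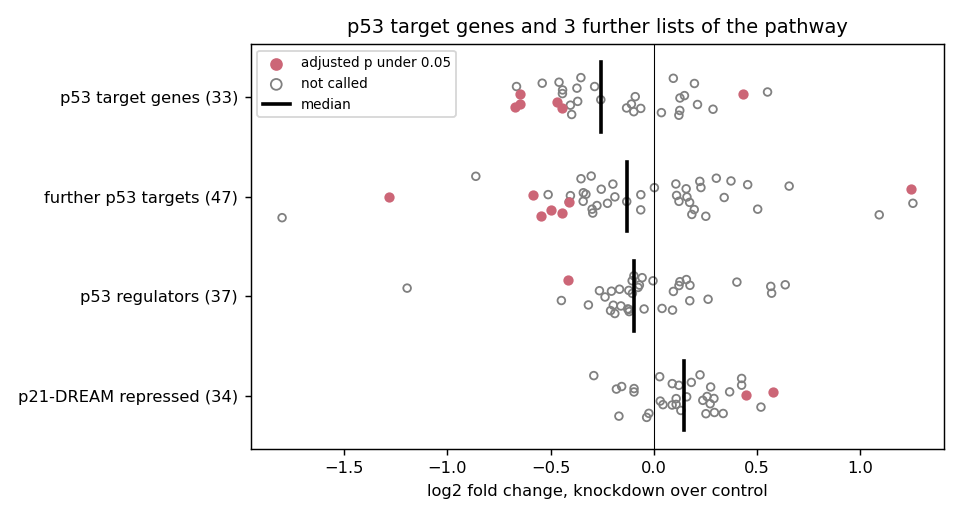
Log2 fold change, knockdown over control, of every tested gene of the 33 p53 targets and of 3 further lists of the pathway, with 1 point per gene, red where it passed the test, and a black line at each median. The medians are -0.26, -0.13, -0.10 and 0.15 from top to bottom.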

How the data were processed

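Total RNA depleted of ribosomal RNA was sequenced from 3 control and 3 knockdown libraries in a single lane, per the labels' protocols. Raw counts of reads for each Ensembl gene were deposited by the authors; the submitters' processing notes name CASAVA 1.7, GSNAP and HTSeq on hg19. No source used here gives the gene annotation or whether HTSeq used strand, so genes that overlap are uncertain. Of the 33 members, 14 share exonic bases with another gene in GENCODE 29, 5 of them over 10% of their length. Lines that name no gene were left out: reads assigned to genes made up 11.9% to 13.7% of those listed (most others had no unique alignment, in a share that differed between the groups). A further table that the authors deposited comes from DESeq 1.10.1 according to the same notes. Per the file headers, it holds for each gene a p-value, also adjusted, a ratio, a log2 ratio and mean signal levels scaled by size factors.

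Counts were tested with edgeR 4.0.16 in R 4.3.3: filterByExpr (minimum count 10), TMM, glmQLFit and glmQLFTest over 13445 genes. Group was the only term and the Benjamini-Hochberg threshold was 0.05. The standard error is the log2 fold change over the square root of F. For some members, among them BAX, POLH, PHLDA3 and SESN1, it is smaller than counting error alone. It then overstates the precision, and the p-value does not follow from it. Alternatives were 2 scalings, 2 filters, the genes of the authors' table, DESeq2 1.42.0, limma-voom (limma 3.58.1), a replicate block and leaving out each library. The steps were tested on simulated counts. The labels do not say that equal replicate numbers pair libraries, and the main fit did not pair them. Within each group no library was a copy of another, with chi-square per degree of freedom from 25.2 to 37.7. Depth was 3741087 to 6421605 gene counts.

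Symbols came from the gene name table by Ensembl identifier, and exonic lengths from GENCODE 29 on GRCh38; of the list entries, DUSP14 had no match. Members and lists were chosen with earlier results of these data known. Values per library are given for called members and for the uncalled member with the lowest p of each class; called genes of the 3 further lists are named, at most 8 per list. Not every gene chosen this way is reported here. Other members named by value were picked after their values were seen.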

Additional observations from a re-analysis of the deposited data

How the results depend on the processing

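The direction of all 33 members but GDF15 and SESN1 was the same in each of 14 alternative settings; with 1 library left out, GDF15 ranged from -0.15 to 0.032 (0.03 without control replicate 2, 0.01 without knockdown replicate 3) and SESN1 from -0.021 to 0.11 on the log2 scale (-0.003 without control replicate 2, -0.02 without knockdown replicate 1). Where the groups of a gene did not overlap, leaving out 1 library could hardly have reversed its direction. The knockdown of MACROH2A1 was called in all 14 settings. With DESeq2 size factors and with the stricter filter, each count stayed within 1.5 times the one reported. Tested over the genes of the authors' table, edgeR called 2060 of 11638 genes and 11 of the 33 members (4 of arrest, 3 of apoptosis, 2 of feedback). It also called 14 further targets and 6 regulators. DESeq2 called 1277 of 13445 genes and 9 of the 33 members, 2 of them in apoptosis and 2 in feedback. It also called 1 gene repressed through p21. With no filter, 1278 of 32553 genes and 7 of the 33 members were called, 2 of them in apoptosis. Called as well was 1 gene repressed through p21. With library totals only, 988 of 13445 genes and 7 of the 33 members were called, 2 of them in feedback. That setting called 0 genes repressed through p21. With limma-voom, 1219 of 13445 genes, 7 of the 33 members and 3 regulators were called. With a replicate block, 416 genes were called. Of the members 1 was called (RRM2B, the 1 call in repair), with 0 in arrest, apoptosis and feedback. Called outside the members were 2 further targets, 0 regulators and 0 genes repressed through p21. Deviations from the group mean correlated at -0.03, -0.02 and -0.17 between libraries of equal number, and at -0.14 to 0.17 between the others. No library correlated best with the library of its own number. Deviations within so few libraries are tied to each other, so these values cannot decide whether equal numbers were handled together. Depth fell from replicate 1 to replicate 3 in both groups. Whether libraries are paired was not tested further. With 1 library left out, counts ranged from 427 to 564 over all genes, 0 to 4 for members, 0 to 1 in arrest, 0 to 2 in repair, 0 to 1 in apoptosis and 0 to 1 in feedback, 3 to 4 for further targets, 0 to 1 for regulators and 0 to 1 repressed through p21. These fits use fewer libraries. For the other changed counts the cause was not tested. Genes with few counts, such as BBC3 and GDF15, limit what could be detected.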
